A study of Danio rerio with 13 samples.

Results

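The endocrine pancreas genes described here are 10 of the 32417 rows of a table of gene counts from zebrafish larvae. They were chosen by symbol: the hormone genes ins, gcga and gcgb, the fate factor genes pdx1, isl1, mnx1, nkx2.2a and pax6b, and the prohormone convertase genes pcsk1 and pcsk2. Each of the 10 symbols stood on 1 row, and all 10 genes passed the filter on low counts. RNA was sequenced from 13 libraries of larvae in 3 groups. The groups were larvae labelled aldh3b1-/-, in which CRISPR had knocked out the gene, and left untreated (3 libraries), wild-type larvae treated with an agent labelled 2-HD (5 libraries), and untreated wild-type larvae (5 libraries). All larvae carried the transgene Tg(fli1:EGFP), in which a promoter active in endothelial cells drives a fluorescent protein. By its title and design the series is about aldh3b1, an aldehyde dehydrogenase gene, in the retinal disease of diabetes, and it also followed glucose metabolism, which the islet hormones control. The labels spell out neither 2-HD nor its dose and duration, nor the age of the larvae, and they list no group given vehicle alone, so a vehicle effect cannot be told apart from one of 2-HD. Separate pools of larvae are not stated for the libraries of a group, so the p-values reflect how much these samples varied, and that variation may be technical.

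In fish as in mammals, the endocrine pancreas is a small set of islet cells in a much larger exocrine gland. Beta cells make insulin, which lowers blood glucose, and alpha cells make glucagon, which raises it. Both hormones are made as longer precursors and are cut inside secretory granules by prohormone convertases. The fate factors are homeodomain proteins that set islet cell identity, and most of them are used a second time in the nervous system and the eye. In RNA from whole larvae, islet hormone transcripts come mainly from the pancreas, with some glucagon transcript from gut and brain, while several of the factors and both convertases come largely from brain, spinal cord and retina.

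Libraries held 19066393 to 19332225 counts in the knockout, 19339056 to 19482661 with 2-HD and 17975289 to 19009200 in wild type. Levels are given as CPM, gene counts relative to the scaled size of the library, and they are compared between groups for 1 gene, not between genes of different length. At this depth the hormone genes rested on modest counts, with 141 to 389 per library for ins, 49 to 127 for gcga and 30 to 94 for gcgb. The targeted gene did not check the knockout label, since aldh3b1 was at 5.19 ± 0.608 CPM in the knockout (SD, n = 3) and 6.104 ± 1.22 CPM in wild type (SD, n = 5; edgeR adjusted p = 0.474). With 2-HD aldh3b1 stood at 10.2 ± 1.99 CPM (SD, n = 5), higher than in wild type by 0.73 on the log2 scale (edgeR adjusted p = 0.00179). Knockout minus 2-HD stood at -0.97 on that scale (edgeR adjusted p = 0.0152), a call lost without knockout replicate 3 (0.0576) or 7 (0.0524). On the first principal component of all genes, 2-HD replicate 1 (8.03) lay within the range of the knockout libraries (-9.31 to 9.86) and apart from the other 2-HD libraries (38.8 to 49.6). Wild-type replicates 3 (-16.2) and 5 (-28.8) lay nearer to the other groups than replicates 10, 13 and 14 (-52.0 to -43.4). Replicate numbers here are those of the labels.

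With 2-HD, 2 islet hormone genes rose, 5 other members fell, and gcga, pdx1 and pcsk2 were not called. No member was called between knockout and wild type. The rises were those of ins (1.46-fold) and gcgb (1.49-fold). The falls were those of pax6b, pcsk1, nkx2.2a, isl1 and mnx1, to between 0.618 and 0.741 of the wild-type level. A gene was called at an adjusted p under 0.05 over all 22158 genes tested. By this rule 42.4% of all genes were called with 2-HD, 22.7% higher and 19.7% lower. In the knockout 5.97% were called, 4.1% higher and 1.86% lower, which is 1322 genes. That number rested on single libraries, as it was 3 without knockout replicate 3, 4 without knockout replicate 7 and 774 without 2-HD replicate 4. Leaving out wild-type replicate 10 gave 306, replicate 13 gave 398 and replicate 3 gave 2071. With total counts in place of scaled library sizes, 6569 of 9797 calls with 2-HD were higher, against 5030 of 9398 with scaled sizes, and in the knockout 1543 of 1745 calls, against 909 of 1322. Libraries did not overlap between 2-HD and wild type for 25.7% of all genes and between knockout and wild type for 15.5%, and among the 10 members this held for 4 and 2 genes. The 7 calls among 10 members with 2-HD are therefore to be read beside a high background. The median log2 fold change with 2-HD was -0.24 over the 10 members and 0.02 over all genes tested. In bulk RNA, fewer cells of a type and less RNA per cell cannot be told apart.

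**Figure D1:**
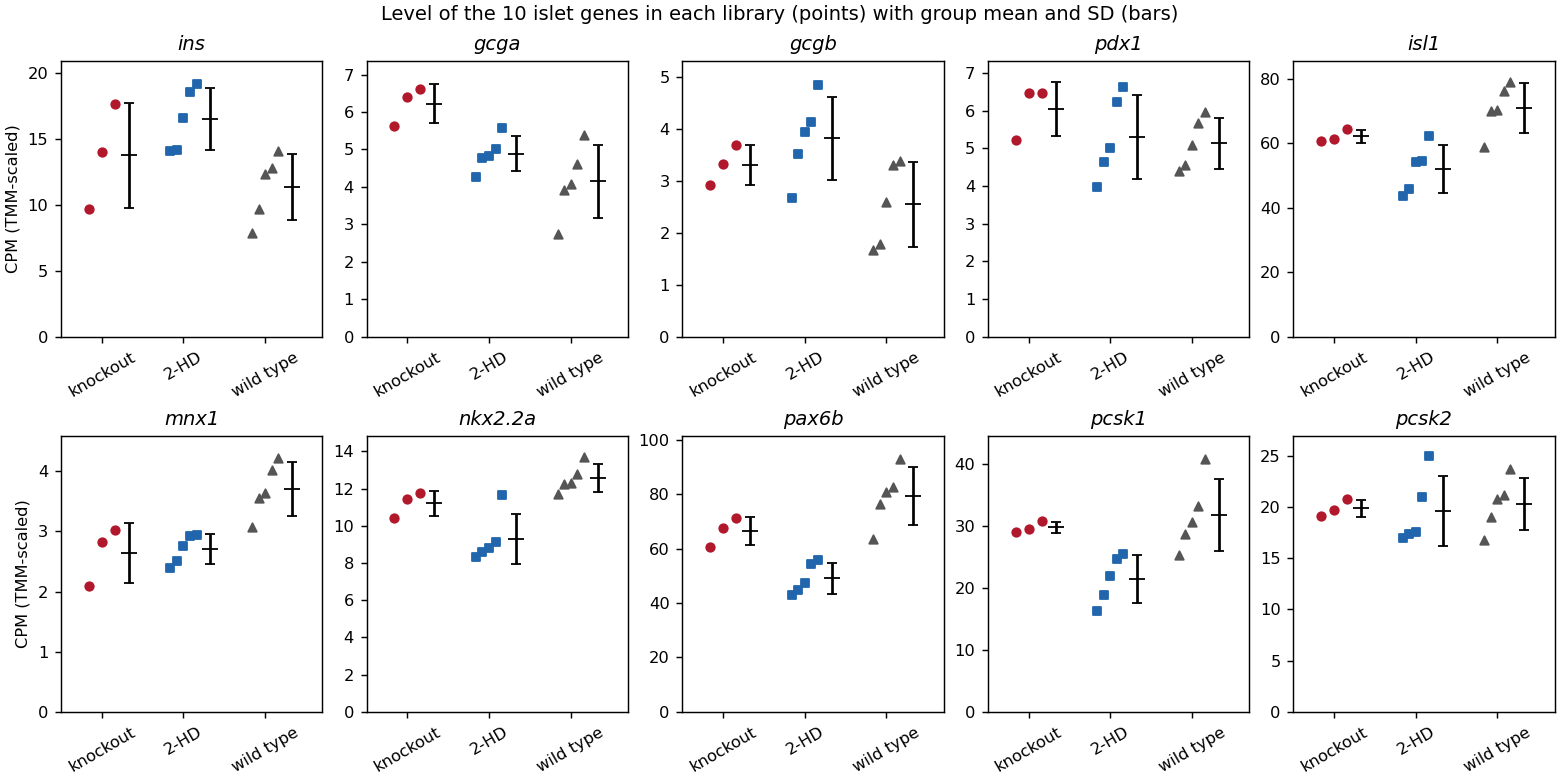
Level of each of the 10 genes in CPM (linear axes from 0) in every knockout, 2-HD and wild-type library (points), with the group mean and SD beside them (bars). The 5 points of ins with 2-HD (14.1 to 19.2 CPM) sit above the 5 of wild type (7.86 to 14.08 CPM), and those of pax6b (43.1 to 55.6 CPM) sit below those of wild type (63.6 to 93.0 CPM).

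The gene ins encodes insulin, the hormone of beta cells, and its group mean was highest with 2-HD. Its levels in the knockout were 14.0 CPM in replicate 2, 9.69 CPM in replicate 3 and 17.6 CPM in replicate 7. With 2-HD they were 16.6, 19.2, 14.2, 14.1 and 18.6 CPM in replicates 1 to 5. In wild type they were 14.1, 12.8, 9.72, 7.86 and 12.4 CPM in replicates 3, 5, 10, 13 and 14. Every 2-HD library lay above every wild-type library, although the lowest 2-HD value (14.12 CPM) and the highest wild-type value (14.08 CPM) were nearly equal. Over all genes, the share with 2-HD libraries wholly above wild type was 13.5%. The knockout libraries spanned most of the range of both other groups.

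The means of ins were 16.5 ± 2.37 CPM with 2-HD (SD, n = 5) and 11.4 ± 2.52 CPM in wild type (SD, n = 5). With 2-HD ins was higher by 0.54 on the log2 scale (SE 0.17, 95% interval 0.17 to 0.91, edgeR adjusted p = 0.0204). The call rested on single libraries, as the adjusted p was 0.0532 without 2-HD replicate 2, and 0.0536 and 0.0503 when wild-type replicates 10 and 13 were left out in turn. In the knockout ins averaged 13.8 ± 3.98 CPM (SD, n = 3), and its log2 difference from wild type was 0.28 (SE 0.20, 95% interval -0.15 to 0.70, edgeR adjusted p = 0.419). The coefficient of variation of ins was 28.9% in the knockout, 14.3% with 2-HD and 22.2% in wild type, against 5.50% to 6.98% from counting alone.

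The gene gcga, which encodes glucagon of alpha cells, was the member with the lowest unadjusted p in the knockout, and it was not called. Its levels in the knockout were 5.64, 6.41 and 6.62 CPM in replicates 2, 3 and 7. Wild-type levels were 4.62, 5.39, 2.74, 4.07 and 3.93 CPM in replicates 3, 5, 10, 13 and 14. All 3 knockout libraries lay above all 5 wild-type libraries, as they did for 7.45% of all genes. Knockout larvae averaged 6.22 ± 0.519 CPM (SD, n = 3) and wild-type larvae 4.15 ± 0.976 CPM (SD, n = 5). The difference of 0.58 on the log2 scale (SE 0.17, 95% interval 0.22 to 0.95) just missed the threshold (edgeR adjusted p = 0.0564). It passed when wild-type replicate 3 (0.0486) or 5 (0.0313) was left out, with DESeq2 (0.0281) and with total counts in place of scaled library sizes (0.0356). In the other 17 of 21 fits under other settings gcga was not called, with an adjusted p of up to 0.847. Its log2 fold change was 0.272 to 0.695 over the 21 fits. With 2-HD, gcga was at 5.01, 4.83, 5.58, 4.77 and 4.26 CPM in replicates 1 to 5, overlapping wild type, with a log2 fold change of 0.24 (95% interval -0.09 to 0.56, edgeR adjusted p = 0.228).

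The second glucagon gene of zebrafish, gcgb, was called with 2-HD but held the fewest counts of the 3 hormone genes. With 2-HD its levels were 4.85, 4.14, 3.94, 3.52 and 2.68 CPM in replicates 1 to 5. Wild-type libraries held 3.39, 3.32, 1.79, 1.67 and 2.60 CPM in replicates 3, 5, 10, 13 and 14. The groups overlapped, since 2-HD replicate 5 lay below wild-type replicates 3 and 5. The means were 3.82 ± 0.803 CPM with 2-HD (SD, n = 5) and 2.55 ± 0.813 CPM in wild type (SD, n = 5). The difference was 0.58 on the log2 scale (SE 0.21, 95% interval 0.12 to 1.04, edgeR adjusted p = 0.0405), and it was called.

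The gcgb call was lost without any 1 of 8 libraries. The adjusted p was 0.0501 without knockout replicate 7, 0.0900 without 2-HD replicate 1, 0.0802 without 2-HD replicate 2, 0.0718 without 2-HD replicate 3 and 0.0544 without 2-HD replicate 4. Leaving out a wild-type library gave 0.101 for replicate 10, 0.0970 for replicate 13 and 0.0605 for replicate 14. In the knockout gcgb was at 3.69, 2.92 and 3.34 CPM in replicates 2, 3 and 7, within or above the wild-type range, with a log2 fold change of 0.38 (95% interval -0.15 to 0.90, edgeR adjusted p = 0.370).

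The 3 hormone genes were highest in the same wild-type libraries. Wild-type replicates 3 and 5 had the highest level of each of the 3 genes, and the lowest were in replicate 13 for ins and gcgb and in replicate 10 for gcga. Summed over ins, gcga and gcgb, the level was 19.0 to 27.6 CPM in the knockout, 22.4 to 28.1 CPM with 2-HD and 13.6 to 22.1 CPM in wild type. All 5 wild-type libraries lay below all 5 libraries with 2-HD on this sum, as they did for 13.5% of single genes. The gap was narrow, from 22.09 CPM in wild-type replicate 3 to 22.41 CPM in 2-HD replicate 4. The largest part of the sum was ins, so the sum does not stand apart from the ins values above. Replicates 3 and 5 were also the wild-type libraries nearest to the other groups on the first principal component of all genes, and the part of that axis in the hormone levels was not tested.

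Ratios of counts within a library do not depend on how libraries are scaled. The ratio of ins to gcga plus gcgb averaged 1.44 ± 0.370 in the knockout (SD, n = 3), 1.94 ± 0.476 with 2-HD (SD, n = 5) and 1.73 ± 0.317 in wild type (SD, n = 5). Its ranges overlapped among all 3 groups, from 1.04 to 1.77 in the knockout, 1.49 to 2.68 with 2-HD and 1.37 to 2.15 in wild type. The ratio of gcga to gcgb was 1.53 to 2.19 in the knockout, 1.03 to 1.59 with 2-HD and 1.37 to 2.43 in wild type. It overlapped between each treated or mutant group and wild type, and 2-HD replicates 1, 2 and 4 lay below every wild-type library. Counts of ins per count of pdx1 were 1.5 to 3.38 in the knockout, 2.14 to 4.18 with 2-HD and 1.72 to 2.90 in wild type. In 2-HD replicates 1, 2 and 5 this ratio (3.71 to 4.18) was above every wild-type library.

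**Figure D2:**
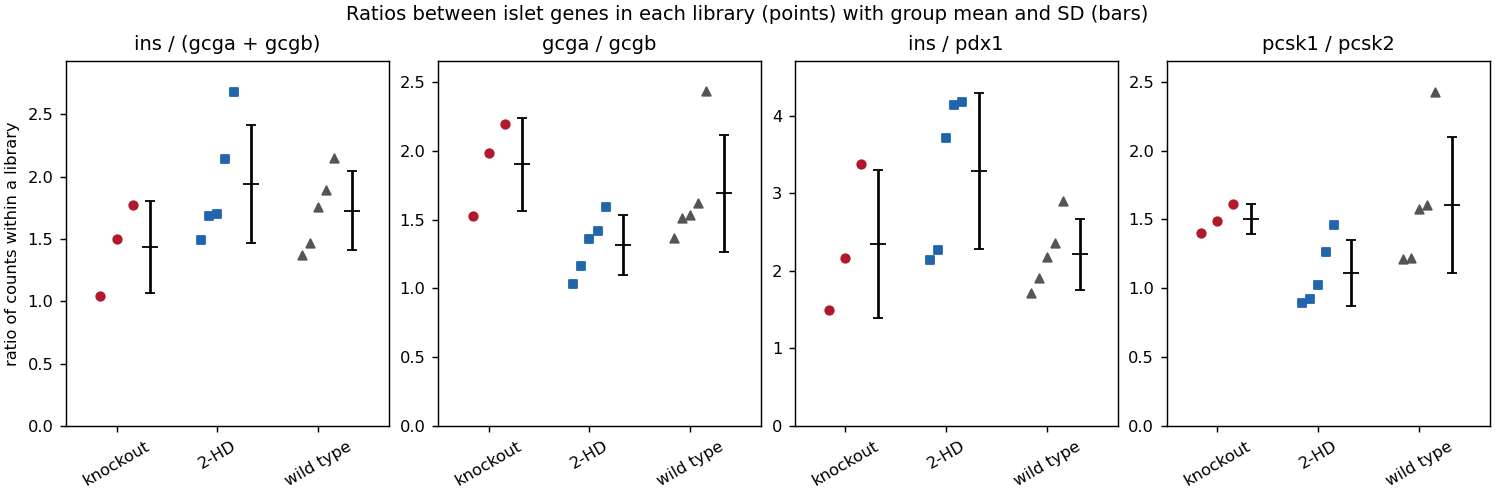
Ratios of counts between islet genes within each knockout, 2-HD and wild-type library (points, linear axes from 0), with group mean and SD (bars). The ratio of ins to glucagon counts overlaps among the 3 groups. That of pcsk1 to pcsk2 is 0.895 to 1.46 with 2-HD and 1.21 to 2.42 in wild type, and these ranges also overlap.

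The pancreas factor gene pdx1, needed for the pancreas to form and for beta cells to make insulin, was not called in any comparison. Its levels were 6.46, 6.46 and 5.22 CPM in knockout replicates 2, 3 and 7. With 2-HD they were 3.97, 4.63, 6.63, 6.23 and 5.00 CPM in replicates 1 to 5. Untreated wild-type libraries held 5.97, 4.41, 5.08, 4.57 and 5.66 CPM in replicates 3, 5, 10, 13 and 14. The 3 ranges overlapped, and that of 2-HD enclosed the wild-type range. Its log2 fold change was 0.23 (95% interval -0.13 to 0.60, edgeR adjusted p = 0.421) in the knockout and 0.04 (95% interval -0.27 to 0.36, edgeR adjusted p = 0.839) with 2-HD. These intervals leave room for a change of up to 1.51-fold in the knockout and 1.29-fold with 2-HD.

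Among the fate factors shared with the nervous system, pax6b showed the largest fall with 2-HD. The Pax6 proteins act in islet cells, where they promote hormone gene expression, and in the eye and brain. Its levels in the knockout were 67.5, 71.1 and 60.7 CPM in replicates 2, 3 and 7. With 2-HD they were 47.3, 54.2, 43.1, 55.6 and 44.8 CPM in replicates 1 to 5. In untreated wild type they were 82.7, 80.6, 76.2, 93.0 and 63.6 CPM in replicates 3, 5, 10, 13 and 14. The 2-HD libraries all lay below the wild-type libraries, as they did for 12.2% of all genes, and they also lay below all 3 knockout libraries. The fall of pax6b with 2-HD was -0.69 on the log2 scale (SE 0.10, 95% interval -0.91 to -0.48, edgeR adjusted p = 0.00014). In the knockout the log2 fold change was -0.25 (95% interval -0.50 to -0.01, unadjusted p = 0.0453, edgeR adjusted p = 0.191), with knockout replicates 2, 3 and 7 inside the wild-type range or below it.

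The gene isl1 encodes a LIM homeodomain factor of all islet cell types, of motor and sensory neurons and of retinal neurons. Its levels with 2-HD were 62.2, 54.6, 43.8, 54.1 and 45.9 CPM in replicates 1 to 5. In wild type they were 69.9, 76.3, 78.9, 70.3 and 58.7 CPM in replicates 3, 5, 10, 13 and 14. The groups overlapped only through 2-HD replicate 1 and wild-type replicate 14. For isl1 this gave a log2 fold change of -0.44 (SE 0.10, 95% interval -0.65 to -0.23, edgeR adjusted p = 0.00248). Knockout replicates 2, 3 and 7 held 61.3, 60.6 and 64.4 CPM, within the wild-type range, and isl1 was not called there (log2 fold change -0.19, 95% interval -0.43 to 0.05, edgeR adjusted p = 0.324).

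The gene nkx2.2a encodes a factor of the endocrine lineage and of the ventral neural tube. With 2-HD its levels were 11.66 CPM in replicate 1 and 9.12, 8.32, 8.59 and 8.82 CPM in replicates 2 to 5. Wild-type levels were 11.72, 12.2, 12.8, 12.3 and 13.7 CPM in replicates 3, 5, 10, 13 and 14. The 2-HD libraries all lay below wild type, as for 12.2% of all genes. However, 2-HD replicate 1 lay just below the lowest wild-type library and far above the other 2-HD libraries. For nkx2.2a the log2 fold change was -0.43 (SE 0.10, 95% interval -0.64 to -0.23, edgeR adjusted p = 0.00260). In knockout replicates 2, 3 and 7 nkx2.2a was at 11.7, 11.4 and 10.4 CPM, overlapping wild type, and its log2 fold change of -0.16 was not called (95% interval -0.40 to 0.07, edgeR adjusted p = 0.388).

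The gene mnx1 encodes a factor that promotes beta cell over alpha cell fate in zebrafish and that marks motor neurons. Its levels in the knockout were 3.02, 2.82 and 2.09 CPM in replicates 2, 3 and 7. With 2-HD they were 2.94, 2.76, 2.39, 2.51 and 2.92 CPM in replicates 1 to 5. Wild-type libraries held 3.55, 4.03, 3.63, 3.07 and 4.22 CPM in replicates 3, 5, 10, 13 and 14. Both other groups lay wholly below wild type, as 8.01% of all genes did in the knockout and 12.2% with 2-HD. The fall of mnx1 with 2-HD was -0.45 on the log2 scale (SE 0.14, 95% interval -0.75 to -0.15, edgeR adjusted p = 0.0186). In the knockout the log2 fold change was of like size, -0.48 (SE 0.17, 95% interval -0.83 to -0.13), and was not called (edgeR adjusted p = 0.0879, unadjusted p = 0.0107). The 2 comparisons share the wild-type libraries. With total counts in place of scaled library sizes the adjusted p with 2-HD was 0.0599.

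**Figure D3:**
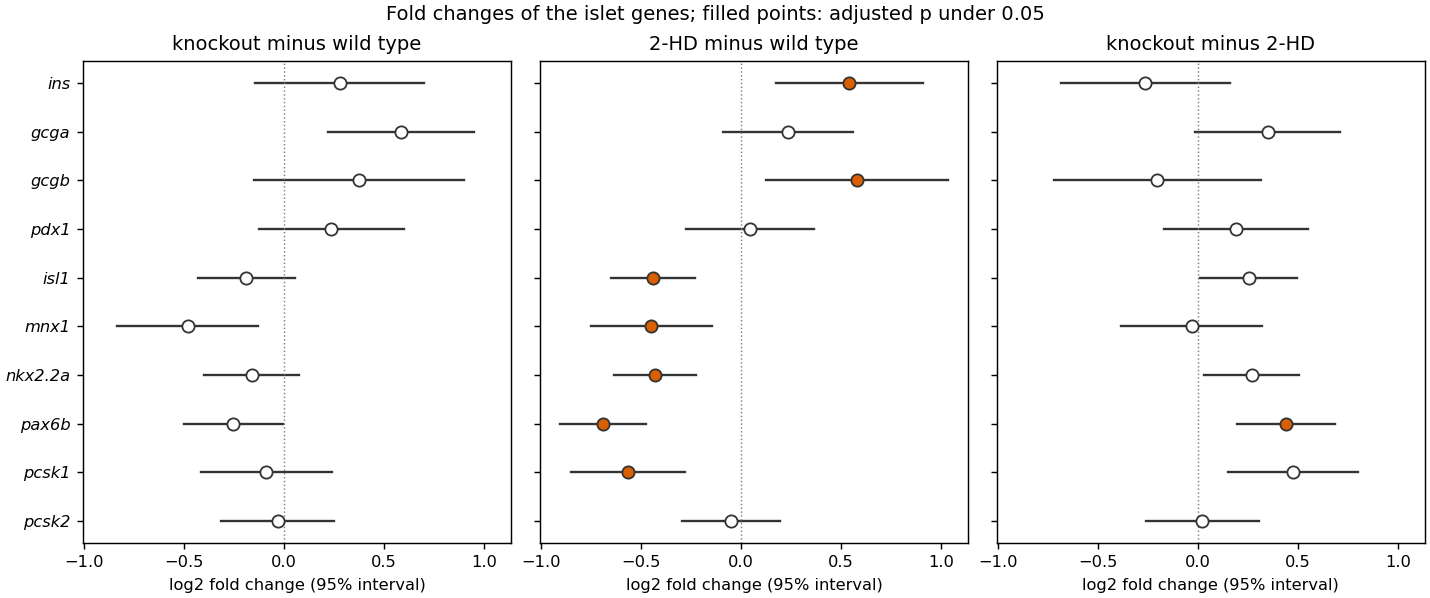
Log2 fold change of each gene with its 95% interval for the knockout against wild type, 2-HD against wild type and the knockout against 2-HD, with filled points where the adjusted p was under 0.05. With 2-HD the filled points are ins and gcgb on the right and isl1, mnx1, nkx2.2a, pax6b and pcsk1 on the left, the knockout has no filled point, and pax6b is the filled point between knockout and 2-HD.

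Of the convertases, pcsk1 fell with 2-HD and pcsk2 did not pass the test. In mammals the enzyme of pcsk1 takes part in cutting proinsulin, and that of pcsk2 cuts proglucagon to glucagon. Both also process neuropeptides in the brain. Levels of pcsk1 with 2-HD were 24.7, 25.5, 18.8, 21.9 and 16.2 CPM in replicates 1 to 5. In untreated wild type they were 28.8, 25.2, 30.5, 33.3 and 40.7 CPM in replicates 3, 5, 10, 13 and 14. The groups overlapped only through 2-HD replicate 2 and wild-type replicate 5. The log2 fold change was -0.57 (SE 0.13, 95% interval -0.85 to -0.28, edgeR adjusted p = 0.00372).

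Knockout replicates 2, 3 and 7 held 29.1, 30.8 and 29.4 CPM of pcsk1, inside the wild-type range, with a log2 fold change of -0.09 (95% interval -0.42 to 0.24, edgeR adjusted p = 0.761). The gene pcsk2 lay at 19.1 to 20.8 CPM in the knockout, 16.9 to 24.9 CPM with 2-HD and 16.8 to 23.7 CPM in wild type. Its log2 fold change was -0.03 (95% interval -0.31 to 0.25, edgeR adjusted p = 0.912) in the knockout and -0.05 (95% interval -0.30 to 0.19, edgeR adjusted p = 0.742) with 2-HD. The ratio of pcsk1 to pcsk2 counts was 1.40 to 1.62 in the knockout, 0.895 to 1.46 with 2-HD and 1.21 to 2.42 in wild type. Wild-type replicate 14 had the highest ratio, and 2-HD replicates 2, 3 and 5 had the lowest. The ranges with 2-HD and in wild type overlapped.

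Between knockout and wild type, edgeR called 0 of the 10 members. At an unadjusted p under 0.05 there were 3, namely gcga, mnx1 and pax6b, and DESeq2 called 1, gcga. Over all genes 5488 of 22158 were under that unadjusted p, and DESeq2 called 2400 of 20621. The intervals show what the 3 knockout libraries could have missed, as they reach 1.63-fold higher for ins and 1.87-fold higher for gcgb. Directly between knockout and 2-HD, where 6.98% of all genes were called, 1 of 10 members was called. The 1547 genes behind that share became 231, 81 and 409 when knockout replicates 2, 3 and 7 were left out in turn. They became 3229, 863, 576, 624 and 581 when 2-HD replicates 1 to 5 were left out in turn. The called member was pax6b, higher in the knockout by 0.44 on the log2 scale (SE 0.11, 95% interval 0.19 to 0.68, edgeR adjusted p = 0.0367). The call of pax6b was lost without knockout replicate 2 (0.106), 3 (0.139) or 7 (0.0625) and without 2-HD replicate 3 (0.0813) or 5 (0.0835). Every knockout library lay above every 2-HD library for pax6b, as for 8.97% of all genes. The same held for the libraries of pcsk1, with a log2 difference of 0.48 (95% interval 0.15 to 0.80, edgeR adjusted p = 0.0733), and of gcga, with 0.35 (95% interval -0.01 to 0.71, edgeR adjusted p = 0.214), and neither was called. The gene pcsk1 passed without 2-HD replicate 1 (0.0367) and without wild-type replicate 14 (0.0468), and nkx2.2a passed without 2-HD replicate 1 (0.0178, against 0.146 with all libraries). Of 21 fits under other settings, pcsk1 stayed uncalled in 17 and nkx2.2a in 19.

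Marker lists of other cells that use these genes moved with 2-HD. Over all genes 22.7% rose and 19.7% fell. Of 14 pan-neuronal genes, 0 rose and 13 fell (92.9%), among them syt1a of synaptic vesicles (log2 fold change -0.68), syn2a (-0.56) and rbfox3a (-0.71). Of 20 genes on a retinal list, 0 rose and 18 fell (90%). Among the falls were rbpms2a of ganglion cells (-0.74), gad1b of inhibitory neurons (-0.68) and rx2 (-0.94). The retinal list was drawn up for the inner layers and ganglion cells, but some of its genes, such as rx2, rlbp1a and tfap2a, are not limited to those cells. Of 11 genes of motor neurons, 0 rose and 7 fell (63.6%), among them lhx4 (-0.78), the choline transporter gene slc5a7a (-0.69) and nkx6.1 (-0.66). By edgeR at an unadjusted p under 0.05, and by DESeq2 after adjustment, none of these genes was higher either. The summed level of the pan-neuronal list was 2665 to 2958 CPM in the knockout, 2048 to 2557 CPM with 2-HD and 3113 to 3397 CPM in wild type. That of the retinal list was 1051 to 1108 CPM in the knockout, 798 to 1025 CPM with 2-HD and 1235 to 1418 CPM in wild type, and that of the motor neuron list was 176 to 189 CPM in the knockout, 138 to 176 CPM with 2-HD and 193 to 240 CPM in wild type. No gene of these 3 lists was at 0 in any group. In the knockout 2 pan-neuronal genes fell (14.3%), syt1a (-0.29) and gap43 (-0.33). So did 2 retinal genes (10%), rlbp1a (-0.56) and rbpms2b (-0.56), while 1.86% of all genes fell there. DESeq2 called 4 pan-neuronal and 8 retinal genes lower in the knockout, where it called more genes in general, 1051 of 20621 lower. These 4 edgeR calls were lost without knockout replicate 3 or 7 and without wild-type replicate 10 or 13, with adjusted p of up to 0.213. Those of syt1a, rlbp1a and rbpms2b were also lost without wild-type replicate 14, that of gap43 without wild-type replicate 5, that of rbpms2b without knockout replicate 2, and each without at least 1 of the 2-HD libraries. Median log2 fold changes with 2-HD were -0.50 (pan-neuronal), -0.56 (retinal) and -0.47 (motor neuron), beside 0.02 over all genes.

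Set against the summed pan-neuronal level of the same library, the 5 members that fell with 2-HD overlapped between 2-HD and wild type. Per 1000 CPM of that sum, isl1 stood at 20.5 to 24.3 CPM with 2-HD and 17.4 to 23.2 CPM in wild type. The same measure of pax6b was 18.5 to 23.6 with 2-HD and 18.9 to 28.3 in wild type, and that of pcsk1 was 7.91 to 10.1 with 2-HD and 7.69 to 12.1 in wild type. For nkx2.2a it was 3.61 to 4.56 with 2-HD and 3.73 to 4.06 in wild type, and for mnx1 1.07 to 1.43 with 2-HD and 0.932 to 1.25 in wild type. On this measure ins stood at 6.003 to 9.07 with 2-HD and 2.39 to 4.52 in wild type. Values of gcga were 1.91 to 2.62 with 2-HD and 0.805 to 1.64 in wild type, and those of gcgb were 1.31 to 1.90 with 2-HD and 0.508 to 1.09 in wild type. None of these 3 hormone ranges overlapped, and the share of all genes that separate on this measure was not computed. The uncalled members pdx1 and pcsk2 overlapped but also had higher means with 2-HD. For pdx1 the measure was 1.55 to 3.11 with 2-HD (mean 2.32) and 1.34 to 1.92 in wild type (mean 1.56). For pcsk2 it was 6.62 to 9.88 with 2-HD (mean 8.46) and 4.99 to 7.61 in wild type (mean 6.19). In the knockout, ins stood at 3.47 to 6.62 and gcgb at 1.05 to 1.25, both overlapping wild type. There gcga, at 1.91 to 2.49, and the uncalled pdx1, at 1.96 to 2.31, lay wholly above wild type. The summed pan-neuronal level itself lay wholly below wild type with 2-HD and in the knockout. A gene with equal CPM in all groups therefore stands higher in these 2 groups than in wild type on this measure. Dividing by that sum moves genes that fell towards wild type and genes that rose further from it, so this pattern was largely set in advance. This scaling was chosen after the data were seen and is given as values only, and the part of neuronal RNA in the members' changes was not tested.

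Markers of the exocrine pancreas, the gland around the islets, gave no call in either comparison. Of 18 genes, edgeR called 0 in the knockout and 0 with 2-HD, with 0 in each at an unadjusted p under 0.05. DESeq2 called 0 in both. Over all genes, edgeR called 5.97% in the knockout and 42.4% with 2-HD. Their summed level spread widely within groups, from 1790 to 6340 CPM in the knockout, 2218 to 4823 CPM with 2-HD and 1834 to 4354 CPM in wild type. The median log2 fold change of the list was 0.22 in the knockout and 0.10 with 2-HD.

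**Figure D4:**
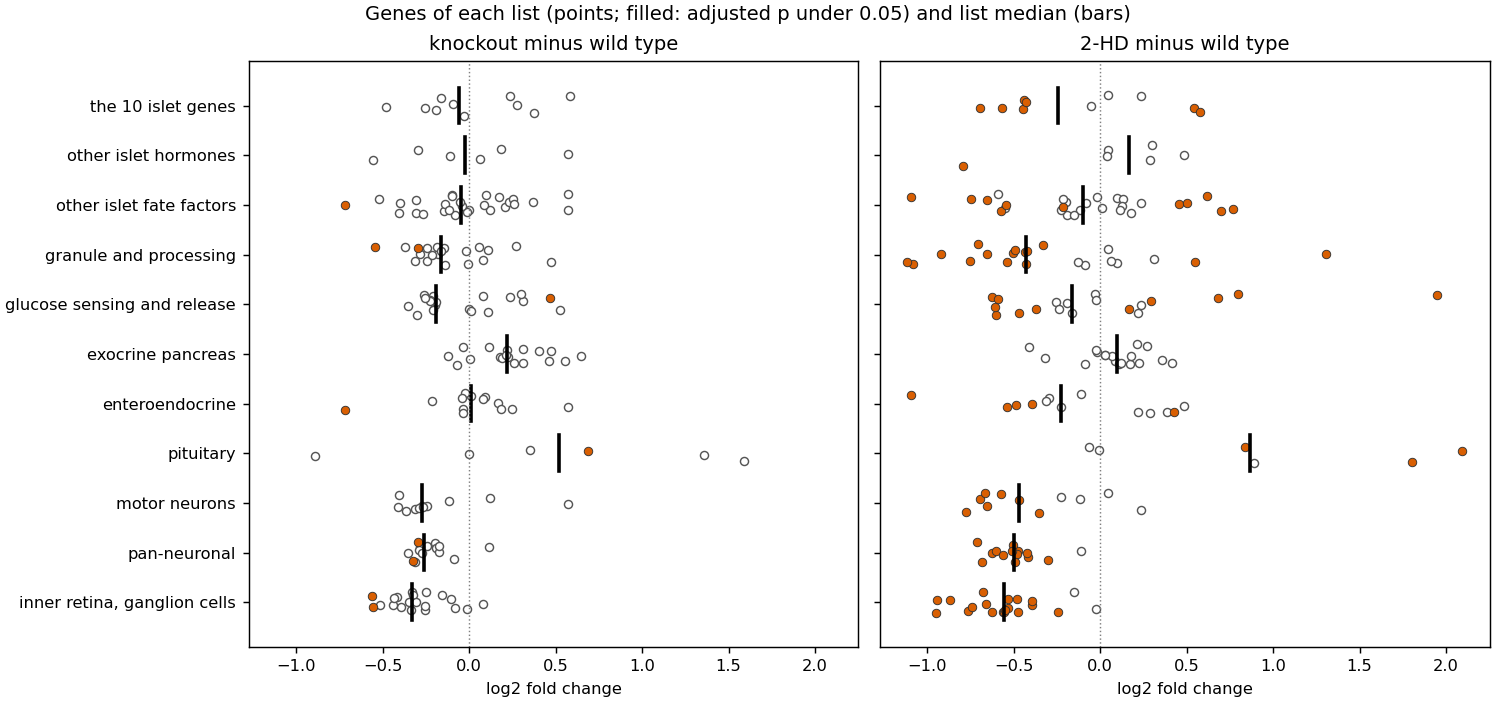
Log2 fold change of each gene (points, filled where the adjusted p was under 0.05) and the median (bars) for the 10 islet genes and for 10 further lists, for knockout minus wild type and 2-HD minus wild type. With 2-HD the medians of the pan-neuronal list (-0.50) and the retinal list (-0.56) lie left of 0, and that of the exocrine pancreas (0.10) lies close to it.

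Other islet hormones were measured beside the members. Of 6 tested, 0 rose (against 22.7% of all genes) and 1 fell with 2-HD (16.7%, against 19.7%). In the knockout, where edgeR called 5.97% of all genes, 0 were called by edgeR or by DESeq2, with 0 at an unadjusted p under 0.05. The called gene was pyya, of the peptide YY hormone made in islets, gut and brain, at 6.54 to 9.96 CPM with 2-HD and 12.3 to 16.4 CPM in wild type (log2 fold change -0.79, SE 0.14, edgeR adjusted p = 0.000502). Levels of sst1.1, a somatostatin gene of delta cells, were 9.33 to 11.4 CPM in the knockout, 9.39 to 12.2 CPM with 2-HD and 9.69 to 12.3 CPM in wild type. The second insulin gene, insb, was too low for the filter in most libraries and is named here because of its values. It had 3, 4, 32, 6 and 25 counts in 2-HD replicates 1 to 5, against 0 to 4 counts in the knockout and 0 to 4 counts in wild type. The higher counts were those of 2-HD replicates 3 and 5. Without the filter its log2 fold change with 2-HD was 2.89 (SE 0.80, edgeR adjusted p = 0.0109), and with DESeq2 the adjusted p was 0.00386.

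Further islet fate factors went both ways with 2-HD. Of 28 tested, 5 rose (17.9%) and 6 fell (21.4%), close to the 22.7% and 19.7% of all genes, with a median log2 fold change of -0.10. The falls included neurod1, a factor of islet cells, neurons and photoreceptors (-1.09, SE 0.16, edgeR adjusted p = 0.000156), pax6a, the sister gene of pax6b (-0.75), and nkx6.1 (-0.66). The rises included sox9b of pancreatic duct and other progenitor cells (0.62), gata6 of endoderm and heart (0.76) and hnf4a of liver and gut (0.50). In the knockout 1 of the 28 was called (3.57%, against 5.97% of all genes called and 1.86% lower), a fall of neurod1. It was at 131, 121 and 105 CPM in knockout replicates 2, 3 and 7. In wild-type replicates 3, 5, 10, 13 and 14 it was at 136, 149, 192, 261 and 243 CPM. The log2 difference was -0.72 (SE 0.19, edgeR adjusted p = 0.0404). Every knockout library lay below every wild-type library, as for 8.01% of all genes, but knockout replicate 2 nearly reached the lowest wild-type library. DESeq2 called 1 of the 28 higher and 3 lower in the knockout, beside 1349 higher and 1051 lower of all 20621 genes it tested.

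Genes of the secretory granule mostly fell with 2-HD. Of 21 tested, 2 rose (9.52%, against 22.7% of all genes) and 13 fell (61.9%, against 19.7%), with a median log2 fold change of -0.43. The falls included chgb, a granin gene (29.0 ± 6.04 CPM with 2-HD against 62.9 ± 8.97 CPM in wild type, SD, n = 5 each, edgeR adjusted p = 4.67e-05). They also included pcsk1nl, of the inhibitor of the pcsk1 enzyme (-0.66), and syt7b, of a calcium sensor of exocytosis (-1.08). The 2 rises were the convertase genes pcsk5a (1.31) and pcsk5b (0.55), which in mammals are active in many tissues. Many granule genes are expressed throughout the nervous system, and the pan-neuronal values above stand beside this count as well. In the knockout 2 of the 21 were called, both lower (9.52%, against 5.97% of all genes called and 1.86% lower). These were cadpsb of granule priming (-0.30, edgeR adjusted p = 0.0428) and syt7b (-0.55, edgeR adjusted p = 0.0471). DESeq2 called 0 of the 21 higher and 4 lower there, beside 1349 higher and 1051 lower of all 20621 genes it tested.

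Genes of glucose sensing and insulin release also went both ways. With 2-HD 5 of 19 rose (26.3%, against 22.7% of all genes) and 6 fell (31.6%, against 19.7%), with a median log2 fold change of -0.16. The falls included snap25a (-0.63), of the vesicle fusion machinery shared with synapses, and abcc8 (-0.59), of the sulfonylurea receptor of the potassium channel that triggers insulin release. The rises included the glucose transporter genes slc2a1b (0.80, SE 0.10, edgeR adjusted p = 6.74e-05) and slc2a2 (0.68, SE 0.15, edgeR adjusted p = 0.00195). The transporter of slc2a2 serves beta cells and liver in mammals. Among the 5 rises, kcnj11 and pcxa are named here because their calls were frail. The level of kcnj11 was 13.3 ± 0.643 CPM with 2-HD and 10.9 ± 2.07 CPM in wild type (SD, n = 5 each, edgeR adjusted p = 0.041). Its call was kept in 5 of 21 fits under other settings, and that of pcxa (edgeR adjusted p = 0.0413) in 7.

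The rise of gck, which encodes glucokinase of beta cells and liver, was large and uneven. It had 1.45, 46.9, 35.0, 22.5 and 82.2 CPM in 2-HD replicates 1 to 5, against 10.5, 17.1, 2.29, 15.7 and 3.06 CPM in wild-type replicates 3, 5, 10, 13 and 14. The log2 fold change was 1.95 (SE 0.69, edgeR adjusted p = 0.0336), and 2-HD replicate 1 lay below every wild-type library. The call was lost without 2-HD replicate 2, 3 or 5 and without wild-type replicate 3, 10 or 14, with an adjusted p of up to 0.112. In the knockout 1 of the 19 was called (5.26%, against 5.97% of all genes called and 4.1% higher), a rise of slc2a1b. It was at 19.3, 22.8 and 24.5 CPM in the knockout and 12.8 to 18.1 CPM in wild type (log2 fold change 0.47, SE 0.12, edgeR adjusted p = 0.0333). DESeq2 called 2 of the 19 higher and 1 lower in the knockout, beside 1349 higher and 1051 lower of all 20621 genes it tested. The 4 knockout calls by edgeR in these islet lists (neurod1, cadpsb, syt7b and slc2a1b) were all lost without knockout replicate 3 or 7. They were also all lost without wild-type replicate 10, 13 or 14, with adjusted p of up to 0.213 over these fits. The call of neurod1 was also lost without 2-HD replicate 2 or 4, that of cadpsb without 2-HD replicate 2, 3 or 4, and that of syt7b without knockout replicate 2, 2-HD replicate 4 or 5 or wild-type replicate 5.

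Gut and pituitary endocrine cells also use the convertases. Of 13 enteroendocrine genes, 1 rose and 4 fell with 2-HD, namely trpa1b (0.42) upwards and ccka (-0.49), cckb (-0.39), nmbb (-0.54) and neurod1 downwards. In both directions together 38.5% were called, against 42.4% of all genes. By direction, 7.69% were higher, against 22.7% of all genes, and 30.8% were lower, against 19.7%. Of 6 pituitary genes tested, 3 rose (50%, against 22.7% of all genes) and 0 fell with 2-HD. These 3 were pitx1 (0.84), gh1 (1.80) and pomca (2.09), and 8 more were too low to test, of which 2 were at 0 in wild type. Wild-type libraries held only 2 to 7 counts of pomca and 10 to 48 of gh1. In a fit with the replicate number as a block, pomca (edgeR adjusted p = 0.167) and gh1 (0.207) were not called. The summed pituitary list was at 27.4 to 39.1 CPM in the knockout, 34.3 to 41.0 CPM with 2-HD and 23.6 to 29.0 CPM in wild type. Most of the pituitary sum was pitx1 and pitx3, not hormone genes. Means of pitx1 were 14.1 CPM with 2-HD and 7.89 CPM in wild type, and those of pitx3 were 14.9 and 15.6 CPM. The summed enteroendocrine list was at 190 to 202 CPM in the knockout, 144 to 167 CPM with 2-HD and 212 to 332 CPM in wild type. Most of that sum was neurod1. Without it the list was at 70.5 to 85.3 CPM in the knockout, 61.2 to 68.3 CPM with 2-HD and 68.1 to 80.1 CPM in wild type, a sum chosen after the data were seen. The knockout overlapped wild type. With 2-HD the overlap was narrow, as the highest 2-HD library (68.28 CPM) barely passed the lowest wild-type library (68.07 CPM). The part of either list in the levels of pcsk1 and pcsk2 was not tested. In the knockout pitx1 rose (0.69, edgeR adjusted p = 0.0108) and neurod1 was the single enteroendocrine call. These were 1 of 6 pituitary genes (16.7%) and 1 of 13 enteroendocrine genes (7.69%), against 5.97% of all genes. The rise of pitx1 in the knockout was lost without knockout replicate 3 or 7, with an adjusted p of up to 0.0984.

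Patterns over the 13 libraries were compared by the root mean square difference of log2 CPM, each gene centred on its own mean, among the 18408 genes whose mean log2 CPM reached 1. Nearest to ins were gys2, of liver glycogen synthase (0.18), sord, of sorbitol dehydrogenase (0.18), and srgap1a (0.18), whereas ins itself deviated by 0.37 from its mean. Nearest to gcga were lad1 (0.15), si:ch211-71m22.1 (0.17) and aldh4a1 (0.18), against 0.31 for gcga itself. Nearest to pdx1 were chtf8 (0.13), polq (0.14) and fam120b (0.14), against 0.23 for pdx1 itself. Among the 10 members the closest pairs were isl1 with nkx2.2a (0.15), isl1 with pax6b (0.19), mnx1 with nkx2.2a (0.19) and nkx2.2a with pcsk1 (0.19). For ins the closest member was gcgb, at 0.28. These distances describe likeness of pattern in 13 libraries of 3 groups and carry no test.

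**Figure D5:**
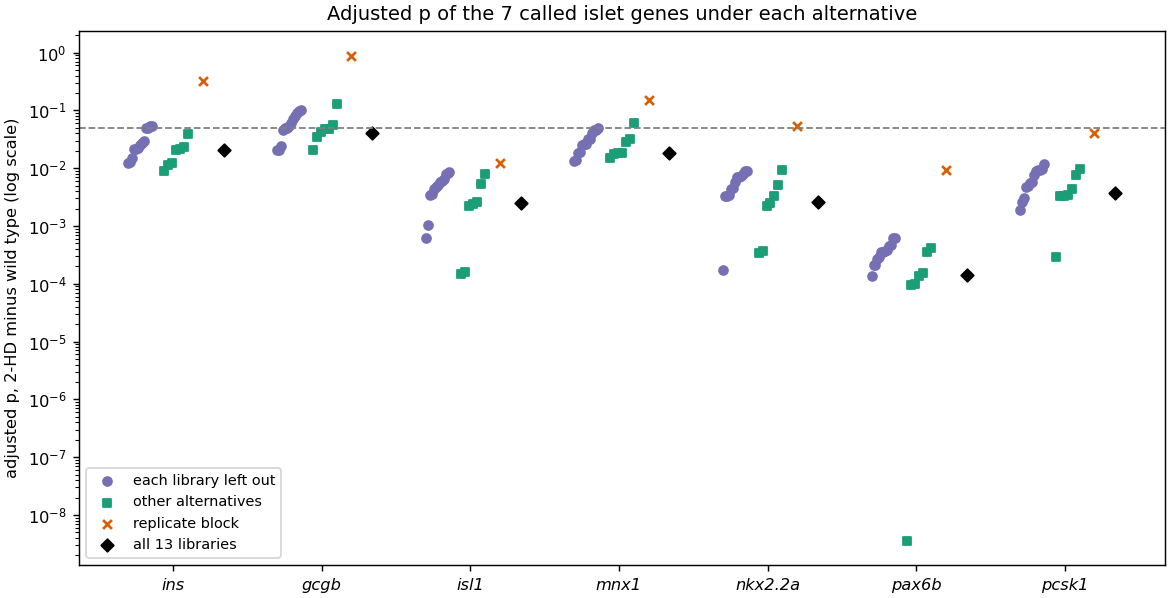
Adjusted p (log axis) of the 7 members called with 2-HD, for the fit of all 13 libraries (diamonds), for each library left out (circles), for other scalings, filters and tools (squares) and for the fit with the replicate number as a block (crosses), with 0.05 as a dashed line. The circles of isl1, mnx1, nkx2.2a, pax6b and pcsk1 stay below the line, while 3 circles of ins and 8 of gcgb lie above it.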

How the data were processed

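Total RNA of larvae was sequenced on the BGISEQ-500 system, per the labels' protocols. The deposited table holds raw read counts, as whole numbers with no normalization. Per the submitters' processing notes, HISAT2 2.2.1, featureCounts 2.0.1 and Trim Galore 0.6.7 were used with the build GRCz11. Which annotation and strand setting were chosen, and how reads with several positions were counted, is not given in the sources used here, so counts of paralogues and of overlapping or antisense genes are uncertain.

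From these counts, edgeR 4.0.16 in R 4.3.3 kept 22158 of 32417 entries with filterByExpr (minimum count 10), scaled libraries with TMM factors and fitted a quasi-likelihood model with 3 group means to all 13 libraries. The knockout and 2-HD were each set against wild type, and the knockout against 2-HD. Genes count as called where the p, adjusted over all genes tested by the Benjamini-Hochberg method, was under 0.05. Every adjusted p is from this test unless DESeq2 1.42.0 is named. The steps were tested on simulated data. Libraries of a group differed by more than sampling noise, and none was treated as a duplicate. For 1 wild-type library the title gives the number 1 and the description, used here, gives 3. No shared replicate number was taken to pair libraries, since groups share at most 2 numbers. Deviations of same-numbered libraries correlated by -0.00 to 0.26. Without the values of differently numbered libraries beside them, these cannot show whether libraries were paired.

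The 10 genes, the 10 further lists and the tests were chosen with earlier results of these data known. Of the list symbols, 162 of 178 were in the table, 14 did not pass the filter, and 3 (ascl1b, scg5 and cacna1db) stood on more than 1 row and were left out. Some genes, such as neurod1, nkx6.1 and snap25a, stand in more than 1 list. From a list with at most 5 calls all called genes may be named, and otherwise the 3 with the smallest p in each direction. Of the genes this rule took, 1 is not reported here. In a table of gene names on the assembly GRCz12tu, used for names only, 9 of the 10 genes matched by symbol and isl1 by an older symbol. Alternatives were other scalings, no filter, DESeq2, fits of only the groups compared, each library left out, wild type replicate 14 and 2-HD replicate 1 left out together, and the replicate number as a block. No sequences or coordinates were used.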

Additional observations from a re-analysis of the deposited data

Results flagged for a closer look

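Within the groups of 5 libraries, 1 value stood far from the others. The level of nkx2.2a in 2-HD replicate 1 was 11.7 CPM, against 8.32 to 9.12 CPM in the other 2-HD libraries. The gap to its nearest neighbour was 0.763 of the range of the group, over the critical value of 0.71 for 5 libraries. In all 20 sets of 5 values were tested (10 genes in 2 groups), and chance alone is expected to mark about 1 in 20. The same library was the highest with 2-HD for isl1, at 62.2 CPM, for gcgb, at 4.85 CPM, and for mnx1, at 2.94 CPM. It was the lowest for pdx1, at 3.97 CPM, for pcsk2, at 16.9 CPM, and for gck, at 1.45 CPM. It also lay apart from the other 2-HD libraries on the second principal component, at 53.8 against -7.34 to 0.75. Wild-type replicate 14 lay apart from its group on the same component, at 41.6 against -24.3 to -0.28 in the other wild-type libraries. The part of 2-HD replicate 1 in the calls was read by leaving it out, and nkx2.2a was called with 2-HD with and without it.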

How the results depend on the processing

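Of 630 repeats of single-gene comparisons under other settings, 595 kept their side of the threshold, 23 lost a call, 11 gained one, and 1 called value (gcgb with 2-HD) changed sign. Most repeats were of comparisons not called with all libraries, where no call could be lost. With 2-HD the lost calls were 10 of gcgb, 4 of ins, 2 of mnx1 and 1 of nkx2.2a, out of 21 repeats each. The other 6 were of pax6b between knockout and 2-HD, also out of 21. Of the 595, 23 changed sign between values that were not called, over 9 gene comparisons that include ins, gcgb and pcsk1 in the knockout. The falls of isl1, pax6b and pcsk1 with 2-HD stayed called under all 21 alternatives. Counts of called genes are given below for the 10 islet genes and for the 74 further islet genes tested (other hormones, other fate factors, granule and glucose sensing lists). With all libraries, knockout minus wild type had 0 islet genes higher and 0 lower, and 1 further gene higher and 3 lower. For 2-HD minus wild type these counts were 2, 5, 12 and 26, and for knockout minus 2-HD they were 1, 0, 9 and 2.

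Total counts in place of TMM factors gave, for knockout minus wild type, 1 islet gene higher and 4 further genes higher and 1 lower, and moved the median log2 fold change of all genes to 0.07 there and to 0.12 with 2-HD. Without the filter that comparison had 1 further gene lower. DESeq2 gave it 1 islet gene higher and 3 further genes higher and 8 lower, and gave knockout minus 2-HD 2 islet genes and 16 further genes higher. Fits of only the groups compared gave 0 further genes higher and 0 lower for knockout minus wild type, 1 islet gene higher with 2-HD and 4 further genes higher for knockout minus 2-HD. Without both wild type replicate 14 and 2-HD replicate 1, knockout minus wild type had 0 further genes lower, 2-HD minus wild type had 1 islet gene higher, and knockout minus 2-HD had 4 islet genes and 18 further genes higher. Over the fits that leave out 1 library each, knockout minus wild type had 0 to 1 islet genes higher, 0 to 3 further genes higher and 0 to 6 lower. In the same fits 2-HD minus wild type had 0 to 2 islet genes higher, and knockout minus 2-HD had 0 to 3 islet genes higher, 0 to 18 further genes higher and 0 to 3 lower. The ratio of ins to gcga counts alone averaged 2.22 in the knockout, 3.43 with 2-HD and 2.81 in wild type. The cause of these shifts was not tested. Over all genes, fits of only the groups compared called 102 for knockout minus wild type, against 1322. DESeq2 called 2400 there and 2376 for knockout minus 2-HD, against 1547, and 3494 were called for knockout minus 2-HD without both libraries.

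The replicate number as a block can be used only through numbers 2, 3 and 5, which are shared between groups, so that this fit rests on few libraries. With the replicate block, knockout minus wild type had 0 further genes higher and 0 lower. Over all genes it called 2 there, 4230 for 2-HD minus wild type, against 9398, and 333 for knockout minus 2-HD. For 2-HD minus wild type the block gave 0 islet genes higher, 3 lower and 6 further genes higher, and for knockout minus 2-HD it gave 0 islet genes higher and 3 further genes higher and 1 lower. The log2 fold change of gcgb with 2-HD turned to -0.0555 (adjusted p = 0.89) under the block, and those of ins (adjusted p = 0.325), mnx1 (0.153) and nkx2.2a (0.0532) kept their sign and were not called. The call of pax6b between knockout and 2-HD was not made either (0.0762).

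The lowest counts among the members were those of gcgb, mnx1 and gcga. For 1 library at the mean count of its group, counting error alone was up to 14.7% of the level of gcgb. For mnx1 it was 12.3% to 14.0%. The coefficient of variation of gcgb was 31.9% in wild type, 21.0% with 2-HD and 11.6% in the knockout. The knockout group holds 3 libraries.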
